A study of Xenopus laevis with 3 samples.

Results

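The liver of DMSO-treated female African clawed frogs (Xenopus laevis) is described here by 1 array, the one whose title names DMSO as the treatment, out of 3 arrays in the series. DMSO is a solvent, and these frogs served as controls in a search for genes under the control of xlCAR, a frog nuclear receptor that responds to foreign compounds. The frogs lived in water at 22 °C, received 2 DMSO injections into the body cavity on 2 consecutive days and were killed 24 h after the second. Their RNA was pooled, so that the array averages several animals whose number the labels do not spell out, and 6 ug of the total RNA went into biotinylated cRNA. Injection and solvent act on all these animals, and no uninjected frog was used here.

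The liver makes most proteins of the blood plasma, among them clotting factors, complement, protease inhibitors and carriers of lipids, iron and vitamins. In egg-laying vertebrates the liver of the female also makes vitellogenin, the precursor of egg yolk, under the control of estrogen. It breaks down amino acids, makes urea and glucose, and oxidises and conjugates foreign compounds. Xenopus laevis is an allotetraploid: many genes exist as an L copy on a long chromosome and an S copy on the matching short chromosome, written as the suffixes .L and .S.

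A level is the deposited log2 value of a probe set, the group of probes designed for 1 transcript. After removal of 96 control probe sets, 32539 were ranked by level. The top 1% held 325 probe sets, at or above 12.55, and the top 5% held 1627, at or above 9.91. The median probe set lay at 5.62. The gene at the edge of the top 1% was cyp2a6.9.L at 12.55, and the next probe set, without a symbol, lay at 12.54. At the edge of the top 5% ndufa8.L lay inside at 9.91 and MGC115313 outside at 9.90. The choice of the array used its label alone, but the tiers are set by the levels themselves, so that membership of a tier is a description. With 1 array there is no replicate error, and nothing was tested. Probes differ in how well they bind, so a rank orders signals on the array and only loosely orders amounts of message.

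The levels were strongly skewed. On the linear scale the lowest probe set of the top 1% had 122 times the signal of the median probe set, and that of the top 5% had 19.5 times. The top 1% held 38.7% of the summed linear signal and the top 5% held 66.0%. Of the ranked probe sets 15495 carried a single gene symbol, 279 several and 16765 none. Probe sets with no symbol made up 23.7% of the top 1%, 22.5% of the next 4% and 53.0% of the remaining 95%. The highest probe set of all, at 14.59, had no symbol. Probe sets with a suffix that marks probes shared between transcripts made up 43.1% of the top 1%, 21.2% of the next 4% and 11.8% of the rest. Those with an antisense mark in their name made up 10.8%, 14.7% and 33.4%, and were kept. No gene was named from a probe set with several symbols. There were 24 of these in the top 1%, of which 18 named only the L and S copies of 1 gene and 18 named a ribosomal protein. The symbol of albumin was carried by 2 such probe sets only, and no level is given for it.

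**Figure D1:**
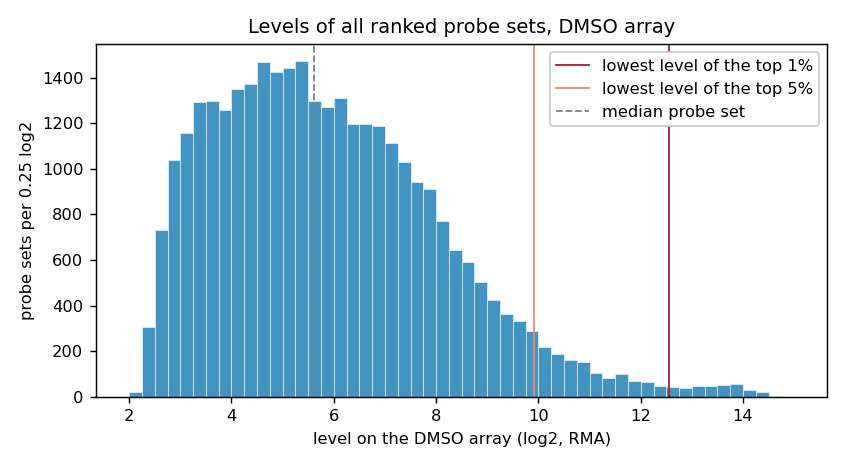
Number of ranked probe sets (vertical axis) in bins of 0.25 log2 of level (horizontal axis) on the DMSO array, with the median probe set at 5.62 as a dashed line and the lowest levels of the top 5% (9.91) and top 1% (12.55) as solid lines. The 25th and 75th percentiles lie at 4.19 and 7.30, and the upper tail reaches 14.59.

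Where a gene had several probe sets, the highest stood for it, which gave 11303 genes with a median of 6.69. Of these genes 188 (1.66%) lay in the top 1% of probe sets and 1043 (9.23%) in the top 5%. These shares are the background for the families below. Members of the families were chosen with earlier results of these data known, so their counts are descriptions and no independent result. The median gene lies above the median probe set, at 5.62. The highest probe set stands for a gene, and probe sets without a symbol, most frequent in the lowest tier, stand for none. The parts of these choices in the difference were not separated. Most genes therefore lie above the median probe set, and counts of genes below it are to be read against this. The share of all genes below it is not given here. L copies made up 59.9% of the L and S genes in the top 1%, 59.3% in the next 4% and 59.9% among all genes. Of the 188 genes of the top 1%, 156 belonged to 1 of 47 families defined by symbol, 19 had a proper symbol outside them and 13 had only a placeholder symbol.

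The 25 genes with the highest levels fell into few groups. There were 12 ribosomal proteins, 4 members of the fibrinogen and coagulation family, 2 serpins, 2 vitellogenins, 2 globins, 1 protein of the endoplasmic reticulum and 2 genes of no family. The highest was hbg1.L (Entrez gene 734881), a globin, at 14.56. It was followed by vtgb1.L (398695), a vitellogenin, at 14.51 and by fgg.L (380331), the gamma chain of fibrinogen, at 14.45. The other vitellogenin, vtga2.L (100037071), lay at 14.37 with 3 probe sets, of which the lowest was at 14.31. Both measured vitellogenin genes were thus among the 5 highest genes of this female liver.

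How far a rank can be trusted is shown by genes with several probe sets. Of the 188 genes in the top 1%, 125 had 1 probe set and 63 had more. The lowest probe set was also in the top 5% for 30 of the 63, lay between that and the median for 17, and fell below the median probe set for 16. Vitellogenin vtga2.L and the globin hbg1.L, with its second probe set at 14.39, were among the former. The ribosomal protein gene rps2.L was among the latter, with probe sets from 4.54 to 14.34. So was aifm2.S (100049086), an oxidoreductase gene outside the families, with 4 probe sets from 3.63 to 14.27. The place of aifm2.S among the 25 highest genes rests on the upper of these. For the families below, lower probe sets are given for some of the genes named and not for all.

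Proteins secreted into the plasma filled much of the top of the list. Fibrinogen is the protein that forms the clot, and coagulation factors are the proteases that activate it. All 18 measured genes of this family lay in the top 5%, 8 of them in the top 1%, with a median of 12.42 and a lowest level of 10.91. Beside fgg.L, the beta chain fgb.L lay at 14.28, and the alpha chain lay at 12.47 for fga.L and 12.34 for fga.S. The symbols taken into this family include proteins that are neither fibrinogen chains nor coagulation proteases, and these count among the 18. They include hrg.L, histidine-rich glycoprotein, at 14.19, and vtn.L, the adhesion protein vitronectin, at 14.00. The fetuins fetub.S at 13.93 and ahsg.L at 13.69 are others, as is the fibronectin gene fn1.S at 13.42, whose lowest probe set lay at 4.52. Prothrombin, which is cut to the clotting enzyme thrombin, reached 13.68 for f2.L and 12.17 for f2.S. The members with the lowest levels were klkb1.L, plasma prekallikrein, at 10.97 and f12.L, the factor that starts the contact pathway, at 10.91. The fetuins and the genes from fga.L on in this paragraph were chosen after their values were seen.

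Serpins and other protease inhibitors were split. Of 26 measured genes, 12 lay in the top 5% and 8 of these in the top 1%, while 6 lay below the median probe set. The highest was serpina1.L, alpha-1-antitrypsin, which inhibits neutrophil elastase, at 14.29. It was followed by serpina3k.L at 14.15 and serpina3.L at 13.97. The median of the family was 9.16, and its levels ran from 3.20 to 14.29.

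Complement, the plasma cascade that marks and lyses microbes, had 27 measured genes, 6 in the top 1% and 19 in the top 5%, with a median of 11.70. Its highest member was c9.L, which forms the pore of the membrane attack complex, at 13.93. The central component c3.L lay at 13.73 and c4a.L, of the classical pathway, at 13.45. The 3 genes below the median probe set were fcn2.L at 5.04, c1ql4.S at 5.22 and c1qtnf4.S at 5.58. The last pair were taken in by their symbols and are C1q-like proteins rather than complement components. These 3 genes were chosen after their values were seen.

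Carriers of lipids, metals and vitamins showed the same upper group with a tail. Of 9 apolipoprotein genes 7 lay in the top 5% and 3 in the top 1%. These were apoe.L, a ligand of lipoprotein receptors, at 13.34, apoa1.S, the main protein of high-density lipoprotein, at 13.34, and apoh.L at 13.07. Of 14 genes listed as carriers of metals, heme and vitamins, 6 lay in the top 1% and 7 in the top 5%. Their highest members were ambp.L, the precursor of alpha-1-microglobulin and bikunin, at 13.90, the retinol carrier rbp4.L at 13.90 and the iron carrier transferrin, tf.S, at 13.87. The lowest were igfbpl1.S at 4.87 and igfbp5.L at 4.37, chosen after their values were seen. They were taken in by their symbols and are named for binding of insulin-like growth factors. Both copies of the carriers rbp4 and tf lay in the top 1%, with rbp4.S at 13.07 and tf.L at 13.04, which were chosen after their values were seen. The vitamin D-binding protein gc.S, the measured member of the albumin family, lay at 11.60.

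Globins, the oxygen carriers of red blood cells, behaved differently from the plasma proteins. Of 10 measured globin genes, hbg1.L at 14.56 and hba1.S at 13.99 lay in the top 1%, and no other reached the top 5%. The third was hbz.L at 7.92, and 5 lay below the median probe set, down to hbg2.L at 3.04. In a bulk sample, more cells of a type and more message per cell cannot be told apart.

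The cytosolic ribosomal proteins, which form the ribosome with its RNA, were the largest block. Of 89 measured genes 77 lay in the top 1% and 81 in the top 5%, with a median of 13.54. Their probe sets held 17.5% of the summed linear signal of all genes. The highest were rps27.S at 14.39, rps2.L at 14.34 and rpl38.L at 14.30. Besides fau.L, the family consists of genes named rps and rpl. Small-subunit genes (rps) had 28 of 33 in the top 1% and a median of 13.58. Large-subunit genes (rpl) had 48 of 55 in the top 1% and a median of 13.51. The 4 genes below the median probe set were rpl29.S at 3.35, rpl3l.L at 4.17, rps15.S at 4.80 and rpl34.S at 4.93. Of these rpl3l.L, chosen after its value was seen, is a paralogue of rpl3 that in mammals is restricted to striated muscle. Of the 89 genes 34 had more than 1 probe set, and in 14 of the 34 the lowest fell below the median probe set. The 14 include rpl3l.L, whose highest probe set lay there too. The share over all genes with several probe sets is not given here. The L and S copies of ribosomal protein genes can share probes, and the split of signal between copies is uncertain. With probe sets marked for shared probes left out, 69 of the genes remained measured, of which 43 lay in the top 1% and 49 in the top 5%.

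The ribosomal proteins of mitochondria did not share this place. None of 52 measured genes lay in the top 5%, their median was 7.87, and the highest were mrpl43.L at 9.54, mrpl13.S at 9.45 and mrpl51.L at 9.44. Translation factors lay between, with 29 of 70 genes in the top 5% and a median of 9.50. The elongation factor eef2.1.L, which moves the ribosome along the message, led them at 13.43, followed by eef1b2.L at 13.21 and eef1g.L at 13.11. Of 27 tRNA synthetase genes, which charge tRNA with amino acids, 2 lay in the top 5%, rars1.S at 11.87 and hars2.L at 10.39, and the third was kars1.S at 9.84.

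**Figure D2:**
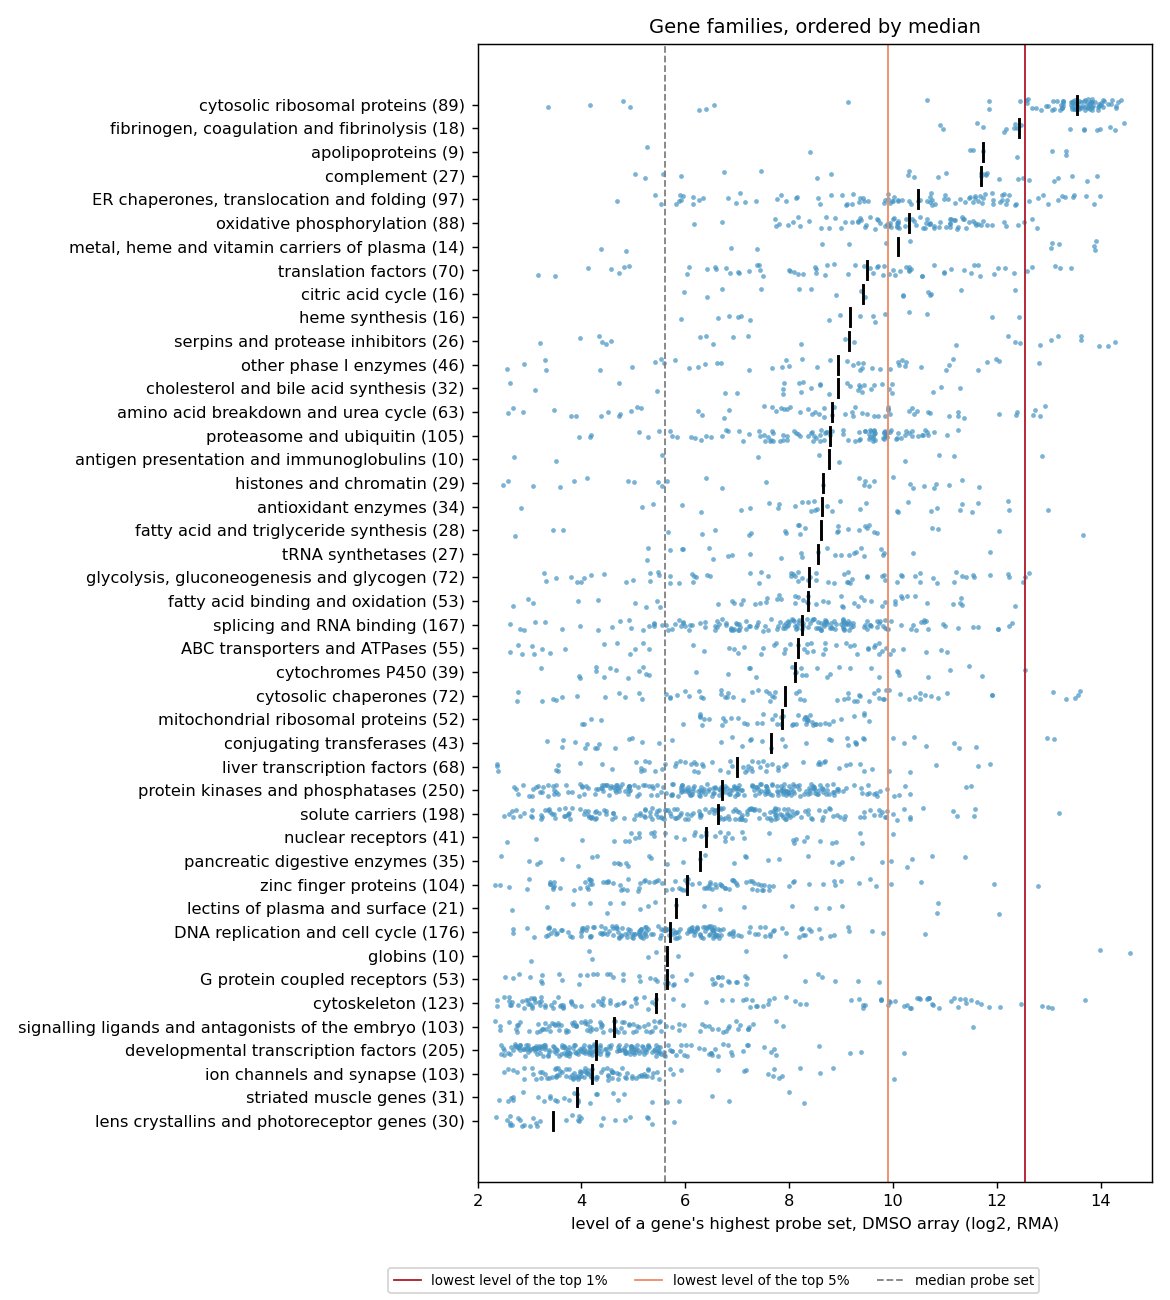
Levels of genes (horizontal axis, log2, highest probe set of each gene) in the families with at least 9 measured genes, with the number of genes in parentheses, on the DMSO array. Each point is a gene, black bars are medians, and vertical lines mark the median probe set and the lowest levels of the top 5% and top 1%. Cytosolic ribosomal proteins (median 13.54) lie highest, followed by the fibrinogen and coagulation family (12.42), which takes in other plasma proteins. Lens and photoreceptor genes (3.45) lie lowest.

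Genes for the folding, translocation and traffic of secreted proteins in the endoplasmic reticulum were also high. Vesicle traffic genes were taken in by their symbols and count among the 97. Of 97 measured genes 12 lay in the top 1% and 59 in the top 5%, with a median of 10.49. The highest was ssr2.S, a subunit of the complex beside the protein translocation channel, at 13.99. Calreticulin, calr.S, a calcium-binding chaperone of glycoproteins, lay at 13.87, and the disulfide isomerase p4hb.L at 13.72. Cytosolic chaperones had a lower median, 7.93, with 17 of 72 genes in the top 5%. The cyclophilins ppia.L at 13.57 and ppib.L at 13.52, and the prolyl isomerase fkbp11.L at 13.61, headed that list, of which fkbp11 and ppib act in the endoplasmic reticulum in mammals. Proteasome and ubiquitin genes had a median of 8.80, with 20 of 105 in the top 5%, but 2 when genes are ranked among genes. They were led by the proteasome subunit psmb4.L at 11.24, by ube2b.S, a ubiquitin-conjugating enzyme, at 11.04 and by psme2.L, a proteasome activator subunit, at 10.79.

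Energy metabolism in mitochondria formed a broad band near the edge of the top 5%. Of 88 genes of oxidative phosphorylation 58 lay in the top 5% and 2 in the top 1%, and none lay below the median probe set. The highest were atp5mc3.S, a subunit of the membrane ring of ATP synthase, at 12.78, the catalytic subunit atp5f1b.S at 12.69 and cox7c.L, of cytochrome oxidase, at 12.53. ATP synthase had 19 of 20 genes in the top 5% and a median of 11.10. Cytochrome oxidase had 14 of 21 genes there and a median of 10.70. Complex I, which takes electrons from NADH, had 16 of 31 there and a median of 9.91. Of 16 citric acid cycle genes 7 lay in the top 5%, led by idh2.S, isocitrate dehydrogenase, at 12.35, mdh2.S, malate dehydrogenase, at 11.31 and the citrate synthase gene cs.L at 10.73.

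Enzymes of nitrogen metabolism reached the top 1% at defined steps. Of 63 genes of amino acid breakdown and the urea cycle, 4 lay in the top 1% and 19 in the top 5%, with a median of 8.82. The highest were ahcy.L, which splits S-adenosylhomocysteine, at 12.92, argininosuccinate synthase, ass1.S, at 12.84 and cps1.L, which makes the carbamoyl phosphate that enters the urea cycle, at 12.73. The remaining urea cycle enzymes followed closely, with arg1.L, arginase, at 12.40, otc.S, ornithine transcarbamylase, at 12.36 and asl.L, argininosuccinate lyase, at 12.04, all 3 chosen after their values were seen. Every step of the urea cycle was thus represented by a gene at or above 12.04.

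Glucose metabolism had 20 of 72 genes in the top 5% and a median of 8.39. The highest were ugp2.L, which makes UDP-glucose for glycogen, at 12.62, slc37a4.L, the glucose-6-phosphate transporter, at 12.55 and g6pc1.1.L, glucose-6-phosphatase, which releases free glucose, at 12.50. The gluconeogenic gene pck1 was low, with pck1.L at 5.32 and pck1.S at 3.81, each on 1 probe set. Its relative by symbol, pck2.L, lay in the top 5% at 10.4. Both pck1 and pck2 were chosen after their values were seen. Fatty acid binding and oxidation had 12 of 53 genes in the top 5%, led by the acyl-CoA-binding protein dbi.S at 12.36, slc27a2.L, a fatty acid transporter, at 11.34 and scp2.L, a sterol carrier, at 11.31. The probe sets of slc27a2.L reached down to 4.66. Fat synthesis and export had 4 of 28 there, with mttp.2.S, whose mammalian counterpart loads lipid onto apolipoprotein B, at 13.67, the desaturase scd.L at 12.05 and fads2.L at 10.87. The list of sterol and bile acid synthesis had 6 of 32, led by hsd11b1.L at 11.29, hsd17b12.S at 10.93 and hsd17b12.L at 10.78. These leading genes were taken in by their symbols, which name steroid dehydrogenases, and need not act in sterol or bile acid synthesis. The heme list had 4 of 16, of which hmox1.L at 12.43 and hmox1.S at 11.91 encode heme oxygenase, which breaks heme down, and blvrb.L, biliverdin reductase B, followed at 10.66.

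Enzymes of drug metabolism are the class that receptors such as CAR control in mammals, so their level in the solvent-treated liver is of interest to this study. Of 39 cytochrome P450 genes, which oxidise drugs, steroids and fatty acids, 1 lay in the top 1% and 8 in the top 5%, with a median of 8.12. The highest were cyp2a6.9.L at 12.55, cyp2b6.L at 11.72 and cyp2a6.1.L at 11.46, all of family CYP2. Of 14 CYP2 genes 5 lay in the top 5%, and they ran down to cyp2j2.L at 3.23. The 3 measured CYP3 genes lay close together at 8.33 for cyp3a4.1.L, 8.22 for cyp3a5.L and 8.06 for cyp3a4.2.L. CYP1 was represented by cyp1a1.L at 8.96 and cyp1a1.S at 6.82. Of 5 CYP4 genes 2 lay in the top 5%, with cyp4b1.L at 11.09 and cyp4v2.1.L at 10.68. P450 enzymes of steroid synthesis were low, at 5.19 for the aromatase cyp19a1.L and 5.11 for cyp17a1.L. The P450 genes other than the 3 highest were chosen after their values were seen.

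Other enzymes of oxidation, reduction and hydrolysis had 15 of 46 genes in the top 5% and a median of 8.95. They were led by the aldehyde dehydrogenase aldh9a1.S at 12.82 and the epoxide hydrolases ephx2.L at 12.04 and ephx1.L at 11.99. Of 43 conjugating transferases 9 lay in the top 5% and 2 in the top 1%, with a median of 7.65. The glutathione transferases gstm1.S at 13.10 and mgst1.L at 12.98 were the highest, and the glucuronosyltransferase ugt1a6.S followed at 11.61. Antioxidant enzymes had 12 of 34 genes in the top 5%, led by gpx3.L, a glutathione peroxidase, at 13.00, the catalase gene cat.2.L at 12.23 and the peroxiredoxin prdx6.L at 12.22.

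Solute carriers and nuclear receptors had few genes in the top 5%. Of 198 solute carrier genes 11 (median of the family 6.64) lay in the top 5%, led by the mitochondrial carriers slc25a5.L, which exchanges ADP and ATP, at 13.20 and slc25a3.L, for phosphate, at 11.58, and by the copper transporter slc31a1.L at 11.56. The probe sets of slc25a3.L reached down to 4.26. ABC transporters and ATPases had 6 of 55 and a median of 8.17, above that of all genes, and the highest were the proton pump subunits atp6v0c.L at 11.04, atp6v1g1.S at 10.92 and atp6v1b2.S at 10.64. Of 41 nuclear receptor genes 1 lay in the top 5%, with a median of 6.41. It was hnf4a.S, a regulator of hepatocyte genes, at 10.01, although its second probe set lay at 4.44. The bile acid receptor relative nr1h5.L followed at 9.41 and ppara.S, a fatty acid sensor, at 9.37. The gene nr1i2, whose mammalian counterpart is a xenobiotic receptor, lay at 6.40 for the S copy and 4.62 for the L copy. The estrogen receptor esr1, through which estrogen acts on vitellogenin genes, lay at 6.78 for the L copy and 4.02 for the S copy. Both nr1i2 and esr1 were chosen after their values were seen. No single-symbol probe set carried a symbol of CAR itself, nr1i3.

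Transcription factors with roles in liver had 5 of 68 genes in the top 5% and a median of 7.01. The stress-response factor atf4.L lay at 11.88, cebpb.L at 11.64 and atf5.2.S at 10.84, with probe sets of atf5.2.S down to 5.25. Kinases and phosphatases had 6 of 250, led by the glycogen-targeting phosphatase subunit ppp1r3c.1.L at 11.51, csnk2b.S at 11.41 and csnk1a1.L at 10.33. Zinc finger proteins had 4 of 104, with znf593.L at 12.80, zbtb33.S at 11.95 and zfp36l2.S at 10.55. The second probe set of znf593.L lay at 4.27, and the lowest of zbtb33.S and zfp36l2.S lay at 5.70 and 5.43. G protein coupled receptors had none of 53, and the highest were gpr107.S at 9.74, gpr89b.L at 9.34 and the chemokine receptor cxcr4.L at 8.88. Members were taken in by symbol, and gpr89b is not such a receptor.

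Genes for cell structure and the nucleus covered a wide range. The cytoskeleton had 33 of 123 genes in the top 5% and 62 below the median probe set. The family was thus split: 26.8% of its genes lay in the top 5%, against 9.23% of all genes. Its median of 5.44 lay below the 6.69 of all genes. Its highest members were the beta-actin gene actb.L at 13.70, the actin-binding thymosin tmsb4x.L at 13.07 and the gamma-actin gene actg1.L at 12.99. A second probe set of actb.L lay at 5.65. Histones and chromatin proteins had 9 of 29, led by h3-5.L at 11.65, hmgn1.S at 11.32 and hmgn2.S at 11.08, and the lowest probe set of hmgn1.S lay at 3.65. Splicing and RNA-binding proteins had 20 of 167, led by the poly(A)-binding protein pabpc1.S at 12.29, srsf2.L at 12.24 and pabpc1.L at 12.03. The lowest probe sets of pabpc1.S and pabpc1.L lay at 3.24 and 3.65. Of 176 genes of DNA replication and the cell cycle 1 lay in the top 5%, pcna.L, the sliding clamp of DNA polymerase, at 10.61. It was followed by cdc42.L, a small GTPase taken in by its symbol, at 9.82 and by cdc37.S, a co-chaperone, at 9.60. The median of that family, 5.72, lay near the median probe set and below the median of all genes, 6.69.

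Smaller families of iron, immune and carbohydrate-binding proteins were mixed. Of 4 iron genes 3 lay in the top 5%, with ftmt.S, a ferritin, at 12.96, the iron exporter slc40a1.S at 10.38 and the iron-regulatory protein aco1.L at 10.14. Of 10 genes of antigen presentation 4 did so, led by b2m.S, the light chain of class I molecules, at 12.88, cd74.L, the invariant chain of class II, at 11.18 and cd74.S at 10.88. Of 21 lectin genes 3 did so, the galectins lgals9c.S at 12.04, lgals4.1.L at 10.87 and lgals9b.L at 10.85.

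Families of the eye, muscle, excitable cells and the embryo lay at the bottom by median. Pancreatic digestive enzymes did not, although their median of 6.29 lay below the 6.69 of all genes. They had 5 of 35 genes in the top 5%, but 1 when genes are ranked among genes. Lens crystallins and photoreceptor genes had none of 30 in the top 5%, 29 below the median probe set and a median of 3.45. Their highest levels were 5.79 for cryba4.S, 5.35 for gnat1.L and 5.28 for cryba2.S. Striated muscle genes had none of 31 and a median of 3.92, with tnnt1.S at 8.29, mybph.S at 8.0 and des.1.L at 6.85. Ion channel and synapse genes had 88 of 103 below the median probe set and a median of 4.21. The counts below the median probe set stand without the share of all genes, so the order of families rests on their medians. The highest of the ion channel and synapse genes, sypl1.L at 10.01, stmn1.S at 8.84 and syn2.S at 8.59, were not ion channels. Developmental transcription factors had 171 of 205 below the median probe set and a median of 4.27. Their highest were pax3.L at 10.22, foxo3.L at 9.38 and foxk2.L at 9.17. Ligands, receptors and antagonists of embryonic signalling had 78 of 103 below the median probe set and a median of 4.62. Among them fzd8.S at 11.55 stood apart from dll1.L at 7.89 and fzd10.S at 7.76. The level of pax3.L rested on the highest of 5 probe sets, which reached down to 2.31, and that of fzd8.S on the highest of 4, which reached down to 5.47.

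Outside the families, the top 1% held 19 genes with a proper symbol. The highest were aifm2.S at 14.27 and slurp1l.S, of the Ly6 family of small secreted or surface proteins, at 14.11. Those below were chosen after their values were seen. The gene casc3.S, whose product belongs to the exon junction complex, lay at 13.98 and the dynein light chain dynll1.S at 13.96. Plasma proteins among them were the pentraxin ptx.S at 13.78 and lrg1.L, leucine-rich alpha-2-glycoprotein, at 13.54. The metal-binding metallothionein mt4.L lay at 13.46, the stress-induced nupr1.L at 13.35 and the chemokine cxcl12.L at 12.89. The cold-inducible RNA-binding protein gene cirbp.L lay at 12.74, with a second probe set at 9.08. The gene vkorc1.S, which recycles the vitamin K that clotting factors need, lay at 12.76.

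Marker lists of 14 cell types were set beside the label liver. The lists were chosen with earlier results of these data known, so they are no independent check of that label. Of 43 measured hepatocyte marker genes 15 lay in the top 1% and 32 in the top 5%, with a median of 12.17. The 5 highest were fgg.L, serpina1.L, fgb.L, ambp.L and rbp4.L, between 13.90 and 14.45. The 4 below the median probe set were hpd.L at 2.68, pck1.S at 3.81, apob.L at 5.26 and pck1.L at 5.32, all chosen after their values were seen. The tyrosine-breakdown gene hpd.L has a relative on the array, hpd-like.2.L, at 11.92, also chosen after its value was seen, and apob.S, the other copy of apolipoprotein B, lay at 11.54.

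The marker lists of other resident cells of the liver, and of red blood cells, had lower medians than the hepatocyte list. Of 15 biliary marker genes 4 lay in the top 5%, led by anxa4.S at 12.99, the keratin krt19.S at 10.66 and anxa4.L at 10.22, followed by krt8.1.S at 10.04 and epcam.S at 8.94. Of 25 genes of stellate cells, fibroblasts and smooth muscle 2 did so, the intermediate filament copies vim.S at 11.18 and vim.L at 10.47, followed by acta2.L at 9.90, myl9.L at 9.77 and the collagen gene col3a1.S at 9.49. Of 15 leukocyte and Kupffer cell genes 5 did so, cd74.L at 11.18, cd74.S at 10.88, the protease ctss.S at 10.22, lysozyme lyz.L at 10.15 and myeloperoxidase mpo.L at 10.06. None of 8 endothelial genes did so, and the highest were cldn5.S at 8.41, egfl7.L at 8.32, tek.S at 7.94, egfl7.S at 7.70 and pecam1.L at 7.64. Of 22 erythrocyte genes 5 did so, led by the globins hbg1.L at 14.56, above all hepatocyte markers, and hba1.S at 13.99. Then came ca2.S, carbonic anhydrase, at 10.94, and the anion exchanger slc4a1.L at 10.59. The gene alas2.L, which starts heme synthesis in red cells, lay at 10.30. Below the median probe set lay 5 biliary, 8 stellate, fibroblast and smooth muscle, 5 leukocyte, 2 endothelial and 5 erythrocyte genes. Among them were ptprc.L of the leukocyte list at 3.55 and lrat.L of the stellate list at 2.56, chosen after their values were seen. The second probe set of mpo.L lay at 5.28.

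Markers of cells that are no regular part of the liver were mostly low. Of 28 measured genes of the exocrine pancreas 5 lay in the top 5%, 14 lay at or above the median probe set and 14 below it, with a median of 5.50. The 5 were the digestive proteases prss3.S at 11.39, ctrb1.L at 10.76, cela3a.S at 10.37, prss1.L at 10.27 and ctrc.L at 9.97. With genes ranked among genes, prss3.S alone of these stayed in the top 5%, and the second probe set of ctrb1.L lay at 3.16. The lowest was an amylase gene, amy2b.S, at 2.45, chosen after its value was seen. The endocrine pancreas had none of 9 genes in the top 5% and a median of 3.63, with chga.L at 5.94, the insulin genes ins.S at 5.58 and ins.L at 5.27, sst.1.L at 4.01 and gcg.L at 3.63. The source of the protease signal was not tested.

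Gut epithelium had 1 of 15 genes in the top 5%, lgals4.1.L at 10.87, and the next were lct.1.L at 5.18, tff3.8.L at 5.17, cdx1.S at 5.05 and tff3.1.S at 4.83. Oocyte and ovary had none of 15 and a median of 4.11, with ddx4.L at 8.48, cyp19a1.L at 5.19, zpd.L at 4.85, zp2.L at 4.79 and cpeb1.L at 4.74. Markers of the oocyte were thus low although the vitellogenins, which the ovary takes up as protein, were among the 5 highest genes. Skeletal muscle had none of 17 and a median of 3.86, with des.1.L at 6.85, ckm.L at 6.52, des.1.S at 5.64, actc1.L at 4.82 and tcap.S at 4.61. The few genes of pigment cells, lung surfactant and kidney had none in the top 5%. Among them slc45a2.L at 5.67, the surfactant gene sftpc.S at 5.38 and the endocytic receptor lrp2.L at 8.29 were the highest of their lists.

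**Figure D3:**
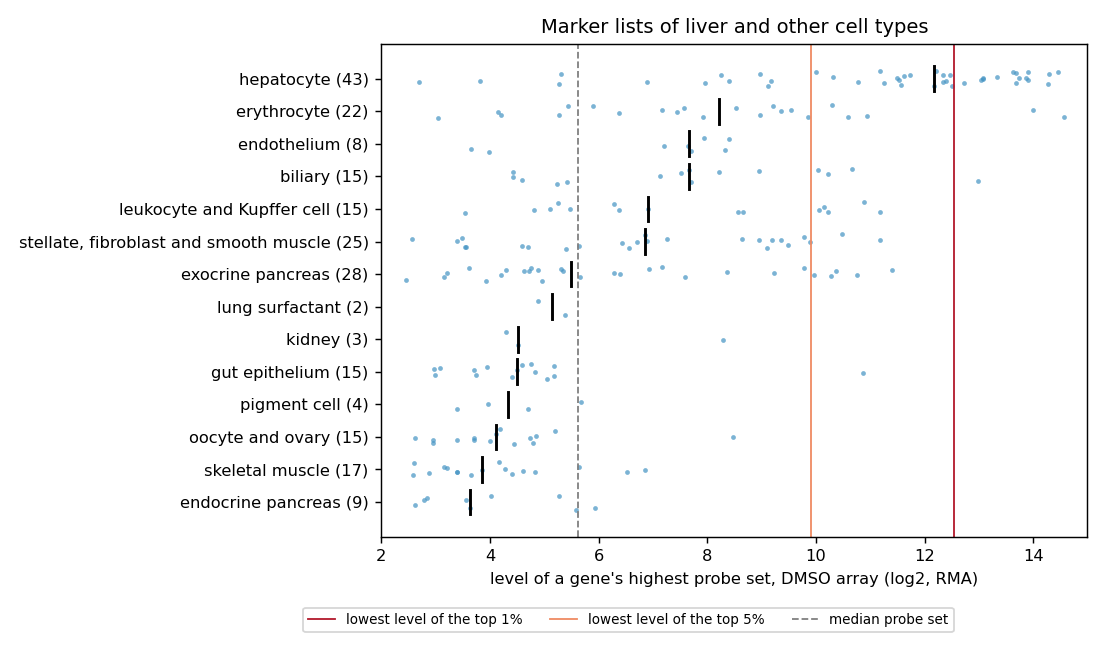
Levels of marker genes (horizontal axis, log2, highest probe set of each gene) of 14 cell types on the DMSO array, with the number of measured genes in parentheses. Each point is a gene and black bars are medians. Hepatocyte markers have a median of 12.17, and no other list has a median above 8.22. The exocrine pancreas list runs from 2.45 to 11.39.

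The copies of a gene were compared for 2009 genes with both an L and an S probe set. The mean of both copies was at or above the level of the median probe set for 1431 pairs, which were counted. In 414 of them (28.9%) the L copy was at least 2-fold higher, in 315 (22%) the S copy was, and 702 lay within 2-fold. By any amount L was higher in 783 and S in 648. The median difference, L minus S, was 0.17 on the log2 scale, and the median absolute difference was 1.03, or 2.04-fold. Across the 1431 pairs the levels of both copies correlated at r = 0.50, and across all 2009 at r = 0.69. This is a description across genes, whose probes share 1 array.

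**Figure D4:**
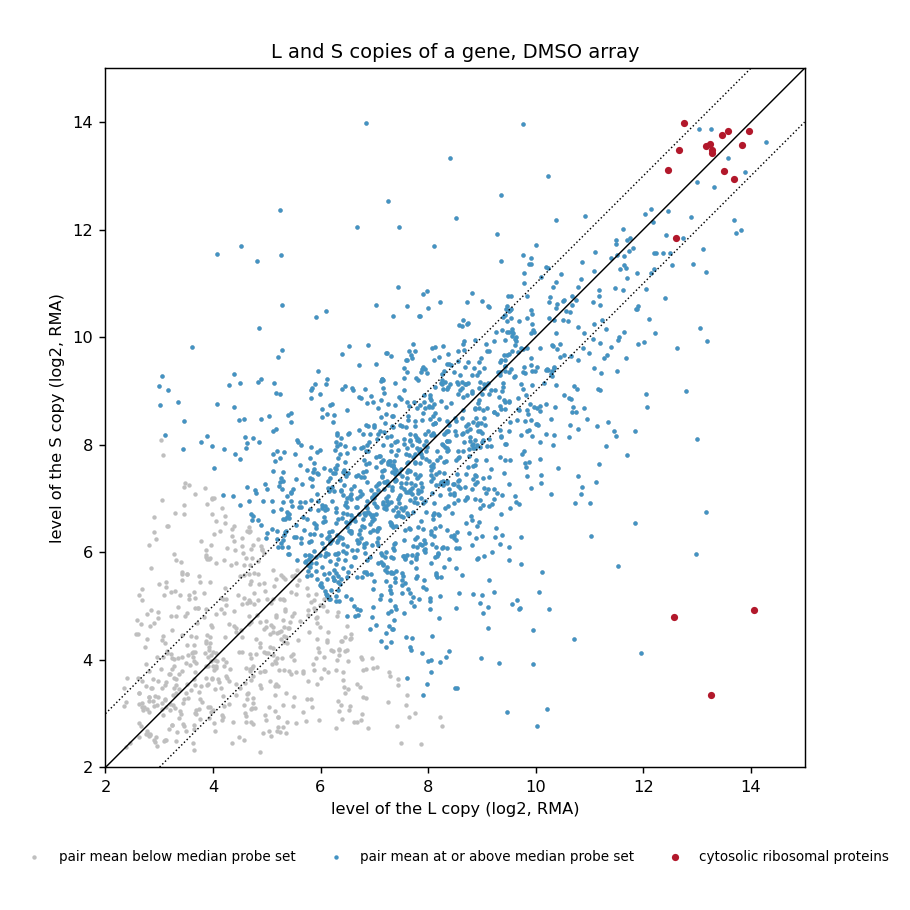
Level of the S copy (vertical axis, log2) against that of the L copy (horizontal axis, log2) for 2009 genes on the DMSO array. Blue points are the 1431 pairs with a mean at or above the median probe set, grey points the others, and red points are cytosolic ribosomal proteins. The solid line marks equal levels and the dotted lines 2-fold differences. 3 ribosomal protein pairs (rpl29, rpl34 and rps15) lie far below the line.

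These differences were no larger than those between probe sets of a single gene. In the 889 pairs with 1 probe set for each copy, the median absolute difference was 0.98, and 49.0% were at least 2-fold apart. In the 1057 genes with exactly 2 probe sets and the same filter on level, those probe sets differed by a median of 1.30, and 59.6% were at least 2-fold apart. The levels correlated at r = 0.52 over the former and at r = 0.27 over the latter. A difference between single probe sets of L and S therefore cannot be told apart from a difference between probes. Binding of probes to the message of the other copy was not tested. Nor was the part that probe sets with an antisense mark have in the differences within a gene.

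**Figure D5:**
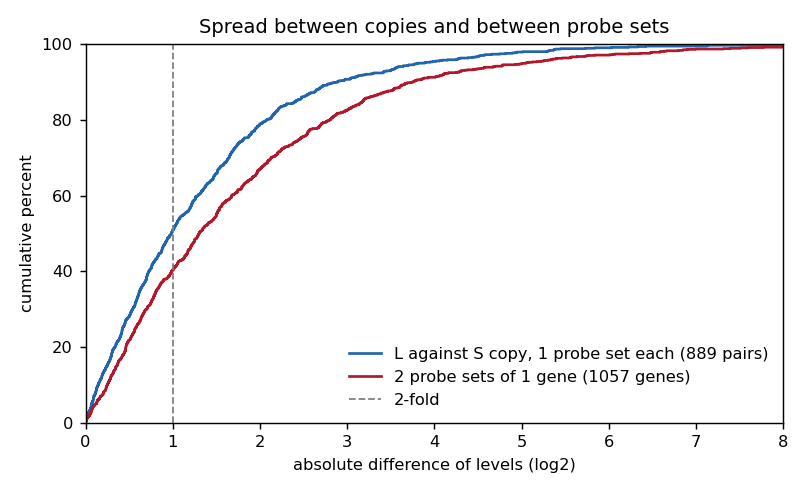
Cumulative percent (vertical axis) of absolute level differences (horizontal axis, log2) between L and S copies with 1 probe set each (889 pairs, blue) and between the probe sets of genes with exactly 2 (1057 genes, red), with 2-fold marked. The red line lies below the blue at 2-fold, where 59.6% of the genes and 49.0% of the pairs lie further apart.

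A further view comes from 62 pairs that had more than 1 probe set on both copies. For these the filter on level used the mean of all probe sets of a copy in place of the highest. In 18 of them (29%) all probe sets of a copy lay above all those of the other, 12 with L higher and 6 with S higher, and in 44 the ranges overlapped. With so few probe sets on a copy, ranges can lie apart through the order of probes alone. The share that this would give was not worked out, so the count is a description and no evidence that copies differ. The examples here were chosen after their values were seen. The nucleolar protein gene npm1 had L probe sets from 9.93 to 10.25 and S probe sets from 3.92 to 4.94, a difference of means of 5.66. The L copy of txndc12, a thioredoxin-like protein of the endoplasmic reticulum, averaged 8.25 and the S copy 3.70. In the opposite direction, tubg1, which nucleates microtubules, averaged 4.38 for L and 8.69 for S. The dynein light chain dynll1 averaged 9.75 for L and 11.96 for S, with its S probe sets as far apart as 9.96 and 13.96.

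The 2 largest differences in favour of L were in ribosomal protein genes. The L copy of rpl29 lay at 13.25 and the S copy at 3.35. The L copy of rpl34 lay at 14.07 and the S copy at 4.93. Next came the elongation factor subunit eef1d (11.96 and 4.13), which has a second L probe set at 4.57, and then the ribosomal protein gene rps15 (12.58 and 4.80). Each copy of rpl29, rpl34 and rps15 had 1 probe set. The gene sec61g (12.99 and 5.96), of a subunit of the translocation channel, has a second L probe set at 6.51. The same holds for sall2 (10.03 and 2.78), pax3 (10.22 and 3.08) and the myosin gene myh9 (9.47 and 3.04), whose lowest L probe sets lay at 3.07, 2.31 and 3.23. The plasma lectin fcn1 had 13.17 for L and 6.75 for S, and hal.2, which breaks down histidine, had 10.72 and 4.38, all on 1 probe set.

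In favour of S, fzd8, a Wnt receptor, had 4.08 for L and 11.55 for S, and nap1l1, a histone chaperone, had 4.53 and 11.70. Both S copies had lower probe sets as well, at 5.47 and 5.31. The gene casc3 had 6.85 for L and 13.98 for S, and dbi had 5.24 and 12.36, on 1 probe set each. Apolipoprotein B, apob, had 5.26 for L, and its S copy had 11.54 with a second probe set at 10.89. The other pairs in this direction were the tubulin gene tuba1c (4.82 and 11.41), the autophagy gene gabarapl1 (3.06 and 9.28), the mitochondrial chaperone hspd1 (3.62 and 9.81), the actin crosslinker actn4 (3.0 and 9.10) and the aminotransferase aadat (3.17 and 9.01). For tuba1c, hspd1 and actn4 all S probe sets lay far above the single L probe set, down to 10.05, 9.23 and 7.82.

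At the top of the list both copies were often high, though copies can share probes. Probe sets with a suffix that marks shared probes made up 43.1% of the top 1%. Their part in the pairs below was not tested. Of 45 pairs with a copy in the top 1%, 20 had both there, 19 only L and 6 only S. Of 303 pairs with a copy in the top 5%, 121 had both there, 109 only L and 73 only S, and in 18 the other copy lay below the median probe set. Among the pairs with both copies in the top 1%, chosen for this, serpina1 lay at 14.29 for L and 13.62 for S, rpl39 at 13.84 and 13.58, calr at 13.26 and 13.87, ppib at 13.52 and 13.09 and hsp90b1, the main chaperone of its class in the endoplasmic reticulum, at 13.32 and 12.80.

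In families with at least 5 pairs past the filter, the median absolute difference between copies ran from 0.25 among 5 pairs of histones and chromatin proteins to 3.53 among 5 pairs of conjugating transferases. These values were not tested against each other, and the spread between probe sets of a gene applies to them too. Among the 17 ribosomal protein pairs past the filter the median absolute difference was 0.42, although 3 were at least 2-fold higher for L and 1 for S. It was 0.62 among 25 pairs of oxidative phosphorylation, of which 4 were 2-fold higher for L and 5 for S. The endoplasmic reticulum family takes in translocation and vesicle traffic genes. Among its 27 pairs the median absolute difference was 1.70, with 13 higher for L and 7 for S. Among 12 pairs of translation factors it was 1.45, with 6 and 3. Whether level and shared probes have a part in these values was not tested. Apolipoprotein pairs, chosen after their values were seen, showed both patterns, since apoa4 had 11.49 for L and 11.73 for S, while apoa1 had 8.41 and 13.34.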

How the data were processed

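The authors deposited log2 expression values made by robust multiarray averaging (RMA), per the submitters' processing notes, which give no version. The method corrects for background, equalises the distributions of the 3 arrays and gives 1 value per probe set. Base 2 follows from how RMA is defined and fits the range of the values. Only the DMSO array was used, and an array has no read depth. The number of arrays, 1 of pooled RNA, limits the precision. Symbols came from the platform annotation, updated for 2 probe sets through a RefSeq gene table. No sequence was used. The gene table served for which genes neighbour each other. Annotation and array name no common build, so no coordinates are given.

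Of the ranked probe sets, 28.1% shared their exact level with another, none of them in the top 5%. Families and cell type lists were set by symbol, where the first matching pattern counts. They may take in a few genes of other function. Members and lists were chosen with earlier results of these data known. Genes named were the 25 highest, the 3 highest of each family with at least 3 measured genes, the 10 L and S pairs with the largest difference in each direction, and the 5 highest genes of each cell type list. Others are said to be chosen after their values were seen. Fold thresholds were 2-fold. Summed signals are sums of 2 to the power of the level. The alternatives were the mean or the lowest probe set of a gene, removal of probe sets marked for shared probes, ranking among genes, subtraction of the 5th percentile of linear signal, other level filters and other fold thresholds. Steps were tested on simulated data. Python 3.11.15, pandas 2.3.3, numpy 2.4.6 and matplotlib 3.10.9 were used.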

Additional observations from a re-analysis of the deposited data

How the results depend on the processing

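With genes ranked among genes instead of probe sets, 113 genes lay in the top 1% and 565 in the top 5%, since fewer items are ranked. At a 4-fold threshold, 13.8% of pairs were higher for L and 9.71% for S. No other alternative moved the number of genes in a tier, the share of signal or the shares of L and S pairs by over 1.5 times. Family counts moved more, 45 of 94 of them with genes ranked among genes. There the top 5% held 31 of 88 genes of oxidative phosphorylation, 2 of 105 of proteasome and ubiquitin, 2 of 55 ABC transporters and ATPases and 1 of 35 pancreatic digestive enzymes, the last 3 families being below the 5.0% of all genes. Without probe sets marked for shared probes, ribosomal proteins fell to 43 of 69 genes in the top 1%, fibrinogen and coagulation rose to 13 of 17, and endoplasmic reticulum genes to 21 of 92, as the lowest level of the top 1% fell to 11.91. With the lowest probe set of each gene, chosen after seeing the data, 50 of 89 ribosomal proteins stayed in the top 1%. With the mean, 54 did. The single genes in the top 5% among developmental transcription factors, nuclear receptors, ion channels and embryonic signals dropped out with the mean. Restriction to copies with 1 probe set each, also chosen after seeing the data, left 251 L and 185 S of 889 pairs. Planned counts of promoter motifs were not run, since no promoter sequences were used here. No paired analysis was possible because the group holds 1 array. Pooled RNA and 1 array leave no measure of variation between frogs.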

Other observations

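Some of the highest plasma protein genes are neighbours in the genome. The RefSeq gene table placed 11208 of the genes, and 4242 pairs of measured genes lay next to each other. Both members were in the top 5% in 44 pairs, of which 13 held members of 1 family. The share of all 4242 pairs that held members of 1 family is not given here, so the 13 is a description. The fibrinogen genes fgg.L (14.45), fga.L (12.47) and fgb.L (14.28) follow each other, as do serpina6.L (13.62), serpina3.L (13.97), serpina3k.L (14.15) and serpina1.L (14.29). Further adjacent pairs were kng1.L (11.62) with hrg.L (14.19), apoa1.S (13.34) with apoa4.S (11.73), c1s.L (11.82) with c1r.L (10.40), c1qb.L (11.02) with c1qc.L (10.28) and c6.1.L (11.70) with c6.2.L (12.50). The glucose-6-phosphatase genes g6pc1.1 and g6pc1.2 were adjacent and in the top 5% on both subgenomes, at 12.50 and 11.18 for L and at 11.57 and 10.77 for S. The subunits of the mitochondrial trifunctional protein, hadha.S (11.30) and hadhb.S (10.15), also lay side by side. Over all genes the relation was weak: 11.3% of the neighbours of genes in the top 5% were in the top 5%, against 9.19% of all neighbours, and the levels of neighbours correlated at r = 0.08 over 4242 pairs. All these genes were chosen after their values were seen.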
